A study of Chlamydomonas reinhardtii with 8 samples.

Results

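Among the nuclear genes of the green alga Chlamydomonas reinhardtii, 17 had normalised read counts that separated the mating types in all 8 libraries, whichever genotype was sequenced. A gene was included if the lowest of the 4 libraries of one mating type was at least 2 times the highest of the 4 libraries of the other, with a mean of at least 20 normalised counts on the higher side. Of the 17, 4 were higher in mt+ and 13 were higher in mt-. They came from 17693 genes in the table, of which 14204 lay outside the left-out IDs and reached that mean. Left out were chloroplast and mitochondrial genes and the mating-type region itself, taken as the IDs Cre06.g250650 to Cre06.g255450. The genes were thus chosen by their mating-type levels in all 8 libraries, and these levels are given below as a description, with no test of mating type.

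Chlamydomonas is a haploid single cell with a pair of mating types, mt+ and mt-. They are set by a region of chromosome 6 in which gene order differs between the types and crossing over is suppressed, so that genes in and near it are inherited as a block. DNMT1 enzymes copy cytosine methylation onto newly made DNA, and the study's title ties cytosine methylation to recombination at this region.

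The 8 libraries were RNA-seq of vegetative cells grown in acetate medium (TAP) under continuous light, in 4 groups of 2 biological replicates. The groups were wild type (WT) mt+ and dnmt1 mt+ in strains titled CC-5155, and WT mt- and dnmt1 mt- in strains titled CC-5325. The dnmt1 groups carry a DNMT1 knockout per the labels, which do not give the lesion or the number of clones. Strain and mating type therefore cannot be told apart, and every mating-type difference below is as much a difference between strains. Library totals ran from 12204374 to 21115955 counts. Of 67 genes inside the left-out region with a mean of at least 20, 5 met the same limits in favour of mt+ and 1 in favour of mt-, or 8.96% in all. Locus Cre10.g461750, named DMT1 in standard nomenclature but not in the files, had 443 and 442 normalised counts in WT mt+ and 248 and 205 in dnmt1 mt+. It had 455 and 388 in WT mt- but 1322 and 1422 in dnmt1 mt-, so its counts were higher, not lower, under the knockout label in mt-. With the lesion not given, whether these transcripts were intact was not tested. In what follows dnmt1 is a label only, and every genotype direction rests on it.

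The working description of these genes as locked to one strain and mating type held in full for a few of them. 2 of the 17 had 0 reads in all 4 libraries of the lower mating type. Another 11 had at least 1 read in every library of the lower type, so most of the set had reads on both sides at unequal levels. Reads alone do not establish expression there, and some were few. Cre18.g748347, for example, had 2 and 2 reads in WT mt+ and 4 and 6 in dnmt1 mt+. The ratio of the lowest high library to the highest low library lay under 4 in 9 genes and at 4 or above in 8. The reference table of loci lists 8 of the 17 as protein-coding genes and gives no symbol for them. The other 9 have IDs of the new number series (beginning with 8), none of which that table holds. The genes are therefore named by ID, and no function is given.

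**Figure D1:**
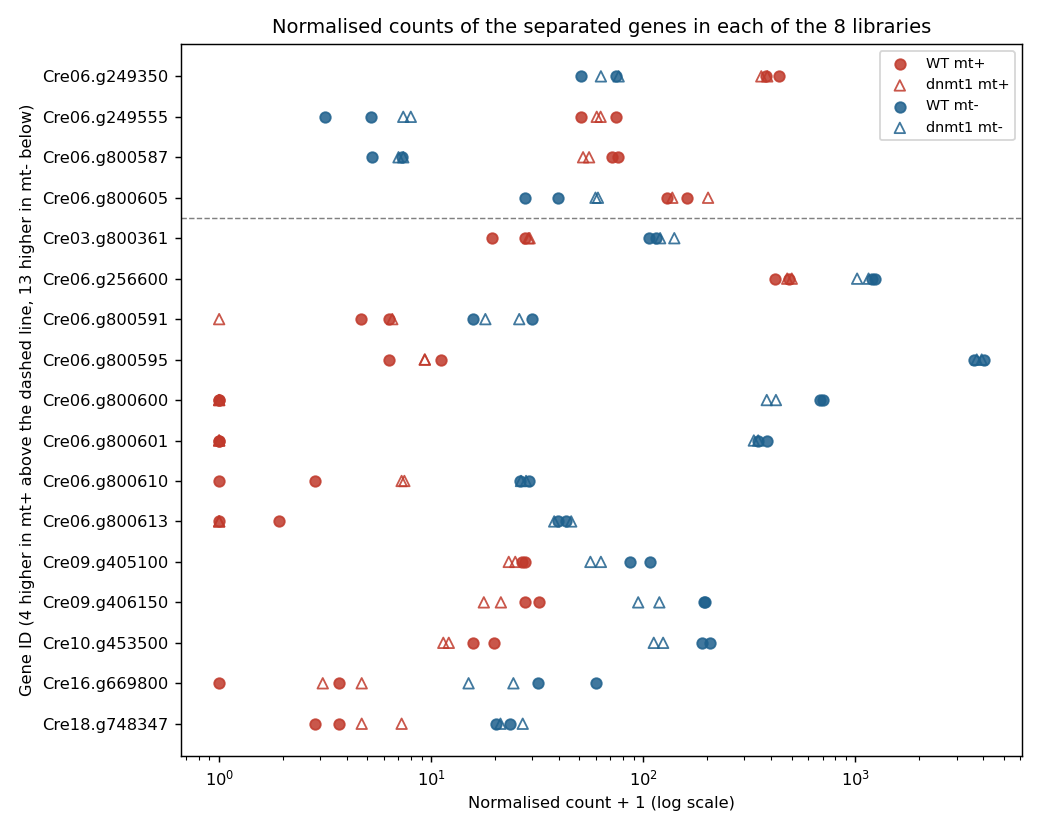
Normalised count plus 1 on a log axis for each of the 17 genes, 1 point per library; red is mt+, blue is mt-, filled circles are WT and open triangles are libraries labelled dnmt1. Red and blue points do not overlap in any row, as the choice of genes requires, and Cre06.g800600 and Cre06.g800601 have all 4 mt+ libraries at 0.

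The widest separations belonged to genes that had reads in every mt- library and few or none in mt+. The counts use IDs of CC-4532, an mt- strain, and whether reads of mt+ alleles were counted less often was not tested. Cre06.g800600 had 0 reads in all 4 mt+ libraries, 683 and 704 normalised counts in WT mt-, and 381 and 421 in dnmt1 mt-. Against a floor of 3 counts per library it was at least 137-fold higher in mt-. Cre06.g800601, the next ID, also had 0 reads in all 4 mt+ libraries, with 380.4 and 346 normalised counts in WT mt- and 331 and 347 in dnmt1 mt-, at least 87.7-fold higher against that floor. Both genes were thus read in every mt- library and in no mt+ library.

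Cre06.g800595 stood 5.34 and 10.1 normalised counts in WT mt+ and 8.32 and 8.33 in dnmt1 mt+ against 3609.9 and 4048 in WT mt- and 3939 and 3733 in dnmt1 mt-. Its mt- mean was 477 times its mt+ mean, and the mt+ libraries held 32 reads in all. Cre06.g800613 had 42.1 and 38.4 normalised counts in WT mt- and 37.0 and 44.7 in dnmt1 mt-, and a single read in mt+, in WT replicate 2 (0.922 normalised counts). The ratio of its summed counts, 158, had a 95% interval for counting error alone of 27.9 to 6265. The interval takes counts as independent, which they may not be if both mates of a pair were counted. It describes the counts that chose the gene and is no test of mating type. These 4 genes carried the largest ratios of the set, and all 4 have IDs of the new series on chromosome 6.

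The other members on the mt- side of chromosome 6 were separated less widely. Cre06.g800610 had 0 and 1.84 normalised counts in WT mt+ and 6.47 and 6.25 in dnmt1 mt+, against 25.3 and 27.8 in WT mt- and 27.0 and 25.5 in dnmt1 mt-. Cre06.g800591 had 5.34 and 3.69 in WT mt+ and 5.55 and 0 in dnmt1 mt+, against 14.7 and 28.8 in WT mt- and 25.0 and 17.0 in dnmt1 mt-. Both rest on few reads, with 15 and 14 in the 4 mt+ libraries together. Cre06.g256600, in contrast, was well expressed in both types. It had 488 and 417 normalised counts in WT mt+ and 500.2 and 476 in dnmt1 mt+, against 1197 and 1230.1 in WT mt- and 1153 and 1018 in dnmt1 mt-. At a ratio of 2.04 it lay just inside the limit.

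The 4 genes higher in mt+ were all on chromosome 6. Cre06.g249350 had 435 and 378 normalised counts in WT mt+ and 359 and 383 in dnmt1 mt+, against 49.8 and 73.7 in WT mt- and 62.1 and 75.5 in dnmt1 mt-. Cre06.g249555 had 73.4 and 49.8 in WT mt+ and 61.9 and 59.3 in dnmt1 mt+, against 4.21 and 2.14 in WT mt- and 7.01 and 6.38 in dnmt1 mt-. These are neighbours in ID order, with 3 genes of the table between them, and neither exceeded 75.5 normalised counts in an mt- library.

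Cre06.g800587 had 74.7 and 70.1 normalised counts in WT mt+ and 54.5 and 51.0 in dnmt1 mt+, against 6.32 and 4.27 in WT mt- and 6.01 and 6.38 in dnmt1 mt-. Cre06.g800605 had 129 and 160.4 in WT mt+ and 136 and 201 in dnmt1 mt+, against 38.6 and 26.7 in WT mt- and 60.1 and 58.5 in dnmt1 mt-. None of the 4 was without reads in mt-, and their mt+ means were 3.41 to 12.4 times their mt- means. No gene on this side had 0 reads in the lower type.

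The 6 members off chromosome 6 were all higher in mt-. Cre09.g406150 had 26.7 and 31.3 normalised counts in WT mt+ and 20.3 and 16.7 in dnmt1 mt+, against 192 and 194 in WT mt- and 118 and 93.6 in dnmt1 mt-. Cre09.g405100 had 26.7 and 25.8 in WT mt+ and 22.2 and 23.9 in dnmt1 mt+, against 85.6 and 106 in WT mt- and 62.1 and 55.3 in dnmt1 mt-. The IDs of this chromosome 9 pair are close in number, but 880 genes lie between them in the order of the v5.5 reference. Cre10.g453500 had 18.7 and 14.7 in WT mt+ and 11.1 and 10.4 in dnmt1 mt+, against 189 and 205 in WT mt- and 111 and 123 in dnmt1 mt-. In these 3 genes the mt- libraries labelled dnmt1 lay below both WT mt- libraries.

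Cre16.g669800 had 2.67 and 0 normalised counts in WT mt+ and 3.70 and 2.08 in dnmt1 mt+, against 58.9 and 31.0 in WT mt- and 14.0 and 23.4 in dnmt1 mt-. Cre18.g748347, whose prefix 18 is a scaffold and not a chromosome, had 2.67 and 1.84 in WT mt+ and 3.70 and 6.25 in dnmt1 mt+, against 22.5 and 19.2 in WT mt- and 26.0 and 20.2 in dnmt1 mt-. Low counts make these ratios imprecise. Cre03.g800361 had 26.7 and 18.4 in WT mt+ and 27.7 and 28.1 in dnmt1 mt+, against 114 and 105 in WT mt- and 139 and 119 in dnmt1 mt-. It is the one new-series ID off chromosome 6.

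**Figure D2:**
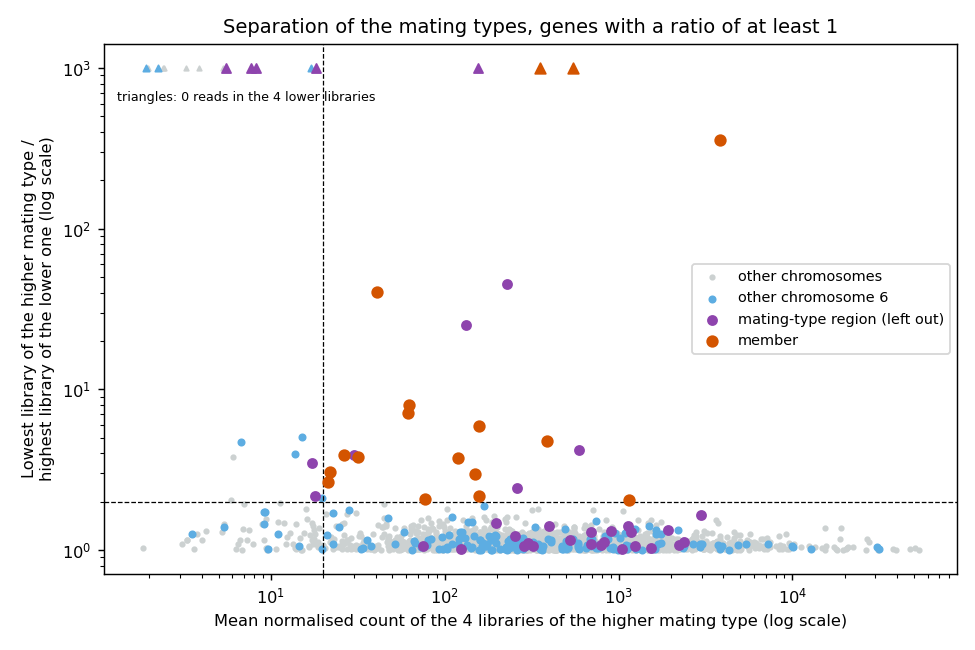
Ratio of the lowest library of the higher mating type to the highest library of the lower one, against the mean of the higher 4 libraries, both on log axes; each point is a gene with a ratio of at least 1, triangles along the top are genes with 0 reads on the lower side, and dashed lines mark the limits of 2 and 20. The 17 members (orange) are the genes outside the left-out IDs above and to the right of both lines.

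By the choice of genes itself, 0.0282% of the 14204 eligible genes were members higher in mt+ and 0.0915% were members higher in mt-. On the mt+ side Cre06.g800605 was inside at a ratio of 2.16 and the next member, Cre06.g249350, stood well apart at 4.75, and outside were Cre06.g256050 at 1.88 and Cre06.g249600 at 1.69. On the mt- side Cre06.g256600 (2.04) and Cre09.g405100 (2.07) were inside, and Cre17.g802055 (1.92) and Cre01.g016700 (1.81) outside. Another 15 genes passed the ratio with a mean under 20. Of these, 4 had a mean of at least 10, and all 4 have chromosome 6 IDs: Cre06.g249450, Cre06.g800589, Cre06.g800612 and Cre06.g802347. Cre06.g800589 had 0 reads in all 4 mt+ libraries and counts of 27 and 26 in WT mt- and 10 and 11 in dnmt1 mt-.

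Position was not used in the choice, apart from the left-out IDs. Of the 17 members, 11 (64.7%) carry a chromosome 6 ID, as do 8.46% of the 14204 eligible genes. As a share of eligible genes, members made up 0.915% on chromosome 6 and 0.0461% elsewhere. New-series IDs made up 52.9% of members and 6.26% of eligible genes. All 3 older-series members on chromosome 6 lay close to the left-out range: 23 genes in ID order separated Cre06.g249350 from its near edge, 19 separated Cre06.g249555, and 22 separated Cre06.g256600 on the far side. In the order of the v5.5 reference the distances were 28, 23 and 25 genes. Older-series IDs were numbered on an earlier assembly, and positions in the assembly used for counting were not used here.

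The other 8 members on chromosome 6 formed a single run in the new ID series, from Cre06.g800587 to Cre06.g800613. The run spans 24 IDs of the table, with at most 4 other genes between neighbouring members, and none of the other 144 new-series IDs of the chromosome was a member. Genes higher in mt- and genes higher in mt+ were interspersed within it: Cre06.g800587 and Cre06.g800605 were higher in mt+ and the other 6 in mt-. Separation was not a property of every gene in the run. Of its 12 genes with a mean of at least 20, 4 were not members, Cre06.g800594, Cre06.g800599, Cre06.g800602 and Cre06.g800606, and their ratios were between 0.687 and 1.04. Cre06.g800599, for example, averaged 46.5 normalised counts in mt+ and 47.6 in mt-. No table used here places this run relative to the mating-type region.

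**Figure D3:**
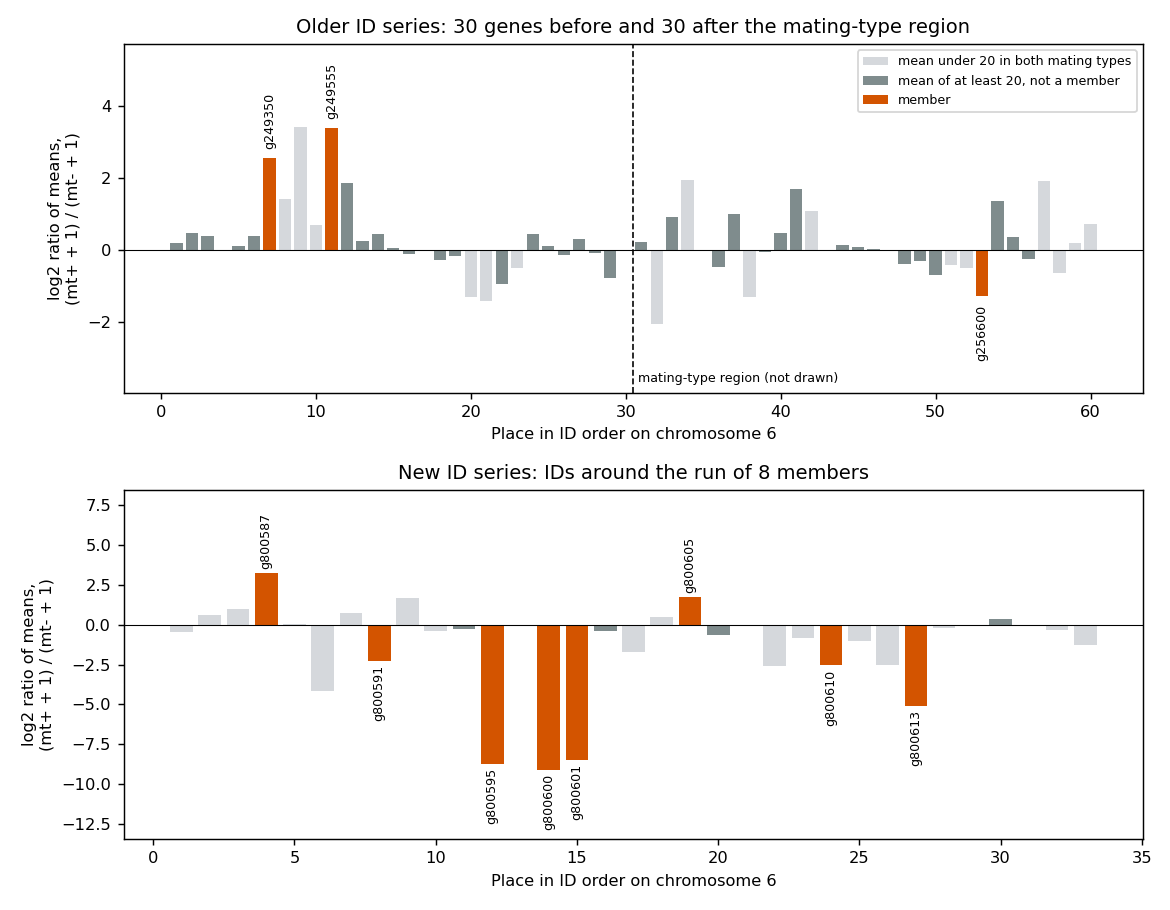
Log2 ratio of the mt+ mean to the mt- mean of normalised counts, each plus 1, for genes in ID order on chromosome 6; bars above 0 are higher in mt+. The upper panel shows 30 genes on each side of the left-out region, with members at Cre06.g249350, Cre06.g249555 and Cre06.g256600, and the lower panel shows the new-series run of 8 members in both directions. The bars of Cre06.g800600 and Cre06.g800601, with 0 reads in mt+, depend on the added 1.

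A few other genes beside the left-out range were separated more mildly. In a width of 30 genes chosen after the values were seen, 4 of 23 genes with a mean of at least 20 before the range (17.4%) and 3 of 18 after it (16.7%) had a ratio of at least 1.5. These include the members Cre06.g249350, Cre06.g249555 and Cre06.g256600, so 2 genes on each side are additional. The corresponding share was 66.7% of 12 genes in the new-series run from Cre06.g800587 to Cre06.g800613. The ends of that run were set by its first and last members, and the 8 genes counted there are its 8 members. With the run and both flanks set aside, the share was 0.261% of 1149 genes on the rest of chromosome 6, which by this division holds 0 members. On other chromosomes and scaffolds it was 0.254% of 13002 genes. Directions were mixed here too. Before the range Cre06.g249350, Cre06.g249555 and Cre06.g249600 were higher in mt+ and Cre06.g250500 in mt-, and after it Cre06.g256050 and Cre06.g256650 were higher in mt+ and Cre06.g256600 in mt-. Cre06.g256600 and Cre06.g256650 are adjacent in ID order and were separated in opposite directions. The stretches were drawn around members that the same ratio had chosen. These shares are therefore descriptions without a test and are not weighed against each other.

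Whether loss of DNMT1, as labelled, changed these genes was a separate question, since the choice compared mating types and not genotypes. The choice does limit what can be seen: a gene whose separation collapsed in the libraries labelled dnmt1 could not have been included. All 17 genes passed the low-count filter over the 4 groups, some only through the mating type in which they are higher. In mt+, 0 of 17 members passed a threshold of 0.05 on the p of edgeR's quasi-likelihood test after Benjamini-Hochberg adjustment, where 18.1% of all 15263 tested genes passed. That count is largely fixed by the choice and is not read against the share of all genes: 13 of the members were chosen for low levels in mt+, and in a fit to the mt+ groups alone 9 of the 17 were tested, with 0 called beside 10.1% of all genes. DESeq2 also called 0, and 1 member, Cre06.g800610, had an unadjusted p under 0.05. It had 0 and 2 reads in WT mt+ and 7 and 6 in dnmt1 mt+, a log2 fold change of 2.44 ± 0.95 (SE; edgeR adjusted p = 0.0901). On the 4 members that are higher in mt+ the log2 fold changes in mt+ ran from -0.43 ± 0.29 for Cre06.g800587 to 0.22 ± 0.22 for Cre06.g800605, with a median of -0.05 against -0.00169 over all tested genes. For Cre06.g800600 and Cre06.g800601 this test had no reads to compare.

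In mt-, 4 of 17 members were called by the same test, where 23.5% of all tested genes were, so the count is near that of genes at large. 3 fell and 1 rose, beside 11.6% of all tested genes lower and 11.9% higher. This balance depends on the scaling. By library size alone 5 members were lower and 0 higher, beside 2442 lower and 1209 higher calls over all genes. The choice bears on the count here too, since 13 members were chosen for high levels in mt- and 4 for low ones. In a fit to the mt- groups alone 15 of the 17 were tested and 6 called, beside 37.8% of all genes. Cre06.g800600 fell by 0.77 on the log2 scale (SE 0.13; edgeR adjusted p = 0.000727), with both libraries labelled dnmt1 below both WT libraries. Cre09.g406150 fell by 0.85 (SE 0.20; edgeR adjusted p = 0.00628) and Cre10.g453500 by 0.73 (SE 0.19; edgeR adjusted p = 0.0126). The gene that rose was Cre06.g800605, higher in mt+, whose low mt- level went up by 0.84 ± 0.29 (edgeR adjusted p = 0.0456).

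The immediate neighbour of Cre06.g800600 in ID order, Cre06.g800601, likewise had 0 reads in every mt+ library. The log2 fold change of Cre06.g800601 in mt- was -0.09 ± 0.15 (edgeR adjusted p = 0.706). Cre06.g800595 had the most normalised counts of the set in mt- and a log2 fold change there of 0.02 ± 0.09 (edgeR adjusted p = 0.908). Cre16.g669800 (-1.28 ± 0.48, edgeR adjusted p = 0.0670) and Cre09.g405100 (-0.68 ± 0.25, edgeR adjusted p = 0.0607) lay below 0 without passing the threshold. Of the 6 members off chromosome 6, 4 had log2 fold changes below 0 in mt-, with a median of -0.71. In mt+ the same 6 had 3 below 0 and a median of 0.09. The 7 mt- members on chromosome 6 had 3 below 0 in mt- and a median of 0.01, and the median over all tested genes was 0.01. The 4 members higher in mt+, all on chromosome 6, had 0 below 0 in mt- and a median of 0.52. These groups hold few genes, and whether they differ was not tested.

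The calls in mt- depended on single libraries except that of Cre06.g800600, which held in all 16 alternatives tried (edgeR or DESeq2 adjusted p from 5.72e-10 to 0.0224). Leaving out whichever library of mt- ended the calls of Cre10.g453500 and Cre06.g800605, and that of Cre09.g406150 ended when either replicate 1 of WT or replicate 2 of the dnmt1 group was dropped. Cre06.g800605 also missed the threshold in DESeq2 (adjusted p = 0.0671), and with an mt- library left out 1 or 2 members were called, while the share of all genes called went down to between 10.3% and 12.1%.

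**Figure D4:**
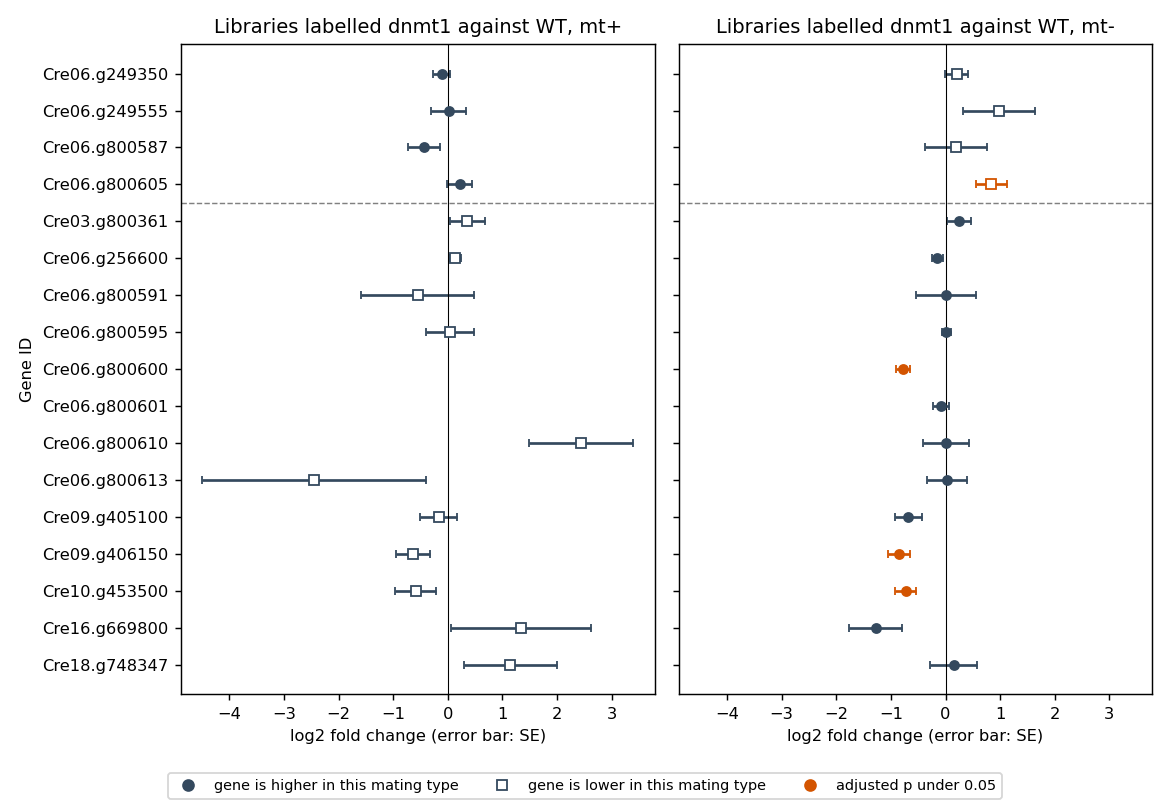
Log2 fold change of the libraries labelled dnmt1 against WT in mt+ (left) and mt- (right) for each member, with its standard error; filled circles mark the mating type in which the gene is higher, open squares the other, and orange the adjusted p under 0.05. In mt+ no gene is orange, and in mt- Cre06.g800600, Cre09.g406150 and Cre10.g453500 lie below 0 and Cre06.g800605 above it. Cre06.g800600 and Cre06.g800601 have no point in mt+, where they had 0 reads.

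The difference of the genotype effects (mt+ minus mt-) asked whether the gap between mating types had the same size in WT and in the libraries labelled dnmt1. Of 17 members 0 were called by edgeR and 0 by DESeq2, where edgeR called 13.8% of all tested genes. The count is not read against that share, since Cre06.g800600 and Cre06.g800601 had no reads in mt+, so that their difference could not be estimated, and other members had few reads on their lower side. In edgeR 1 member, again Cre06.g800610, had an unadjusted p under 0.05 (difference 2.44 ± 1.05, edgeR adjusted p = 0.144). Its mt- mean was 28.8 times its mt+ mean in WT and 4.13 times in the libraries labelled dnmt1, on few mt+ reads. For Cre10.g453500, which fell in mt-, these ratios were 11.8 and 10.9, and the log2 fold change in mt+ was -0.59 ± 0.38. Its difference between mating types was 0.14 ± 0.45 (edgeR adjusted p = 0.876). Cre09.g406150 had ratios of 6.66 and 5.72 and a difference of 0.21 ± 0.38 (edgeR adjusted p = 0.771).

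Among the 4 genes higher in mt+ the estimated differences were all below 0, from -0.31 ± 0.27 for Cre06.g249350 to -0.97 ± 0.73 for Cre06.g249555, and none was called. Their mt+ means were 4.44 to 19.4 times their mt- means in WT and 2.84 to 9.06 times in the libraries labelled dnmt1. The widest of these ratios, for Cre06.g249555, rest on mt- reads of 6 and 2 in WT and 7 and 6 in the libraries labelled dnmt1. Over all tested genes the median difference was -0.02, with a median absolute value of 0.31. Cre06.g256600 had a difference of 0.28 ± 0.15 (edgeR adjusted p = 0.232) and was called without WT mt+ replicate 1.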

How the data were processed

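RNA of 8 libraries was analysed from 2 deposited tables, whose IDs carry the CC-4532 v6.1 suffix. The raw table holds the authors' counts per gene. The other holds the authors' normalised signal, made by dividing each library's counts by a constant (0.749 to 1.42), and was used for choosing the genes and for the levels printed. Tools named in the submitters' processing notes, without their roles, were DESeq2, featureCounts, Picard, STAR 2.7.6 and Trim Galore 2.6. CC-4532 is an mt- strain, and whether reads of mt+ alleles were counted less often was not tested.

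In edgeR 4.0.16 under R 4.3.3, counts were filtered by filterByExpr, TMM factors were computed, and glmQLFit was run with a mean for each of the 4 groups. Contrasts were tested with glmQLFTest, 2-sided, adjusted over all 15263 tested genes with a threshold of 0.05. The standard error is the log2 fold change divided by the square root of F. The fit was tested on simulated data. Alternatives were DESeq2 1.42.0, other scalings and filters, halved counts, the compared groups alone, a replicate block and leaving out each library. Odd numbers made up 25.5% to 30.8% of low counts (2 to 19) in the libraries, so both mates of a pair may have been counted. Intervals and floors (3 counts per library) cover counting error only.

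The genes and alternatives were chosen with earlier results of these data known. Named genes were the members with the highest means, the widest ratios, genotype calls or places in runs, and those nearest the limit, which here comes to all 17; the flanks of the left-out range were added after their values were seen. The v5.5 reference table matched 15386 of 17693 IDs and gave no symbols or sequences.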

Additional observations from a re-analysis of the deposited data

Results flagged for a closer look

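The locus Cre10.g461750 differed between the mating types in its response to the genotype label, with a log2 fold change in mt+ that stood at -2.66 ± 0.17 relative to the one in mt- (edgeR adjusted p = 8.62e-08). It was lower than WT in both libraries labelled dnmt1 mt+ and higher in both labelled dnmt1 mt-. None of the 17 separated genes was called for this difference, where 13.8% of all tested genes were. As stated above, that count is not read against the share, since some members had few or no reads on their lower side.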

How the results depend on the processing

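The number of genes that met the limits was 51 with a ratio of 1.5, 8 with a ratio of 4, and 18 to 21 without 1 library. The run of 8 in the new ID series shrank to 3 when at most 2 other genes were allowed between members. Calls in mt- numbered 1 at a mean of at least 10 CPM, where 5 members were tested and 32.6% of all genes were called, and 1 to 6 without 1 library, where the share of all genes ran from 10.3% to 36.7%. Calls on the side where a gene is higher numbered 3 in the main fit, where 23.5% of all genes were called in mt-. They numbered 5 with library size scaling (23.9% of all genes in mt-), with halved counts (25.6%) and in the compared groups alone (37.8%). With the 10 CPM minimum there was 1. All were of members higher in mt-, and Cre09.g405100 and Cre16.g669800 were the 2 gained. Members were chosen for high levels on that side, so these counts are not read as a result about them. Calls for the difference were 0 in the alternatives with all 8 libraries, where 11.3% to 17.9% of all genes were called. That count is not read against the share, as stated above.

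Only uncalled values near 0 changed sign. Cre06.g249555 in mt+ was -0.012 with DESeq2, -0.0030 with RLE factors and -0.25 to 0.30 without 1 library, and Cre06.g800605 in mt+ was -0.070 to 0.50 without 1 library. In mt-, Cre06.g800591 was -0.036 with DESeq2, -0.00074 with RLE, -0.079 with library size scaling, -0.0017 with the replicate block and -0.45 to 0.52 without 1 library. Cre06.g800595 was -0.076 with library size scaling, -0.00062 at 10 CPM and -0.074 to 0.099 without 1 library. Cre06.g800610 was -0.010 with DESeq2, -0.0063 with RLE, -0.090 with library size scaling and -0.075 to 0.068 without 1 library. Cre06.g800613 was -0.071 with library size scaling and -0.12 to 0.15 without 1 library, and Cre18.g748347 was -0.046 to 0.32 without 1 library.

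Replicate numbers are shared between groups, but the correlations of same-numbered deviations were between -0.05 and 0.15, so they do not pair the libraries. With the replicate block 0 members were called in mt+ (19.8% of all genes), 4 in mt- (25.5%) and 0 for the difference (15.5%). The counts of 0 are not read against these shares, for the reasons given above.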
